A study of Mus musculus with 6 samples.

Results

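Many mouse genes still carry the name of the RIKEN cDNA clone from which they were first known, a string of digits and letters that ends in Rik. They were examined here in hematopoietic stem cells, the rare marrow cells that renew all blood lineages. A row of the gene count table was taken as a member where its symbol ends in Rik and where it reached 3 CPM (counts scaled to the library's total) or more in at least 3 of the 6 libraries. The rule left 393 members of 1829 Rik rows, or 21.5%, in a table of 24091 genes. All 393 members had enough counts for the test of age. Members were chosen by their level, so a member that reached the minimum only in the libraries of 1 age had to differ between ages: 22 members passed only through the aged libraries and 1 only through the young ones. Another 56 passed through libraries of both ages without reaching the minimum in all of them, and 314 reached it in all 6.

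The sort of "wt" (wild-type) marrow took cells that lacked lineage markers and CD48 and carried Sca-1, c-Kit and CD150. There were 3 aged libraries, aged 1 to aged 3, from mice 20 months old (pooled from 4 mice), and 3 young libraries, young 4 to young 6, from mice 2 months old (pooled from 30 mice). The labels do not say whether the number of mice holds for each library or for the group, so the p-values measure the spread between these pools, which may be partly technical. The work belongs to a study of miR-126 and the ageing marrow vasculature, and these 6 libraries carry no treatment and no altered allele in their labels.

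Libraries held 16452829 to 21918658 counts. Young 4 stood apart from young 5 and young 6: its TMM scaling factor was 0.765 against 1.04 to 1.08 in the others, and Actb took 4.06% of its counts against 0.555% to 1.36%. Aged 2 had counts in 20918 genes, the others in 16084 to 17057. Kit, Ly6a and Slamf1, the genes behind 3 of the sort's positive markers, were present in all 6 libraries but not at equal levels. Ly6a was 3.04-fold higher in aged (edgeR adjusted p = 0.0435) and Slamf1 1.54-fold higher (edgeR adjusted p = 0.0891). Kit stood at 320 CPM in young 4 and at 709 to 1033 CPM in the others (edgeR adjusted p = 0.305). Cd48, which the sort excludes, ranged over 0.511 to 2.54 CPM in the aged and 8.59 to 14.5 CPM in the young libraries. Summed CPM of 6 neutrophil markers ran from 1.58 to 4.13, that of 8 macrophage and monocyte markers from 270 to 344, of which Lyz2 made up most, that of 5 B cell markers from 59.4 to 133, that of 5 erythroid markers from 28.7 to 100 and that of 7 endothelial and stromal markers from 113 to 167. Summed CPM of 5 T and NK cell markers was 17.7 to 45.9 in the aged and 103 to 185 in the young libraries. It came nearly all from Nkg7 (4.02-fold lower in aged, edgeR adjusted p = 0.0382). Cd4 was low but also lower in aged cells, at 0.240, 0.413 and 0.186 CPM in aged 1 to 3. In young 4 to 6 it stood at 1.99, 3.69 and 3.59 CPM (edgeR adjusted p = 0.0145). Cd8a had 0 counts throughout, and Cd3e and Cd3g were at 0 to 0.0795 CPM. The part of other cells in the results below was not tested.

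A clone name says nothing of what a gene does. Some members have since been shown to encode well-known proteins and have received names, others are long noncoding RNAs, which are transcribed and often spliced but carry no long reading frame, and a few are pseudogenes. Long noncoding RNAs often start beside the promoter of a coding gene on the other strand, lie antisense to it, or carry microRNAs and small nucleolar RNAs within them. By RefSeq's table for this build, 206 members were protein-coding, 172 long noncoding and 11 pseudogenes, 1 was another RNA and 3 were not matched. A current symbol other than the clone name was found for 67 members.

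Sequences are shown first for 2 sets of members that are described below. The first set holds the promoters of C130026I21Rik and A530032D15Rik, neighbouring genes that both rose in aged cells, and of the 3 members that fell. Both neighbours passed the minimum only through the aged libraries, so their rise follows from the rule. Each is the RefSeq sequence from 250 bases before to 50 bases after a transcription start (GRCm38.p6, the build mm10). Capitals mark matches, on either strand, to the motif CCAAT, bound by factor NF-Y, to the motif TTTGAA, the core of the cell cycle homology element of mitotic genes, or to the ETS motif CCGGAAG. The motif GAAANNGAA, a core of the interferon-stimulated response element, was also searched and had no match in these 5.
C130026I21Rik, chr1:85270517-85270816, minus strand: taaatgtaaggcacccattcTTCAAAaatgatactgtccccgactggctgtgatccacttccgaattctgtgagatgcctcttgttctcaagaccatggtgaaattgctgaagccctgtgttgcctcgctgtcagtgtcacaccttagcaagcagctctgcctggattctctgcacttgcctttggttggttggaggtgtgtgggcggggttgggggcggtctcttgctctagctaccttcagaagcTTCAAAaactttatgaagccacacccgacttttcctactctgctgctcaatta
A530032D15Rik, chr1:85109804-85110103, minus strand: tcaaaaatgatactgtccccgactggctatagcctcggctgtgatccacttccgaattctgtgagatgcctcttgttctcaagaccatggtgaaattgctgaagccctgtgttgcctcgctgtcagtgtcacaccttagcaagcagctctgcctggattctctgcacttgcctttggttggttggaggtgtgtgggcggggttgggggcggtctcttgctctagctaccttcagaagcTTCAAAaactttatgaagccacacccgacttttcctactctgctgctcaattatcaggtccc
C330027C09Rik, chr16:48993938-48994237, plus strand: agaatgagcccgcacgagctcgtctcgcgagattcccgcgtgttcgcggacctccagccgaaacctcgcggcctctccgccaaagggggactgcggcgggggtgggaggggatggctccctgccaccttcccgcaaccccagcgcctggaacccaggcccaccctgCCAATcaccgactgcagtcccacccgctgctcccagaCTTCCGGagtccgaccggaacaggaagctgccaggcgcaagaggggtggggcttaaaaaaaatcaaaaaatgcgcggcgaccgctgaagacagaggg
2610318N02Rik, chr16:17125153-17125452, minus strand: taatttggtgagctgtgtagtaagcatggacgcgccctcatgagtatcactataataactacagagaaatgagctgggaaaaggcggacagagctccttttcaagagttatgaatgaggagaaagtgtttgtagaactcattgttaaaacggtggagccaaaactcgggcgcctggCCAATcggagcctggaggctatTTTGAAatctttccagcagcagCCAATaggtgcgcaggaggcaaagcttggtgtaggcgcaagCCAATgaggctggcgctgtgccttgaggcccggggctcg
4930579G24Rik, chr3:79628829-79629128, plus strand: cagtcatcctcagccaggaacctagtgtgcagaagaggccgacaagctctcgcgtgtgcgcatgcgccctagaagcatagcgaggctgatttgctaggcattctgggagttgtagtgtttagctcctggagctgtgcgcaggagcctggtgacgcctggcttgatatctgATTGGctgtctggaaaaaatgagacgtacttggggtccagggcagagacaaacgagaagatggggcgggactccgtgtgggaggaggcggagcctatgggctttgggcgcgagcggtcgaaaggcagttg

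The C130026I21Rik and A530032D15Rik promoters shared an unbroken run of 255 of 300 bases and lay at separate positions on chromosome 1. CCAAT was found in all 3 promoters of members that fell, with 3 matches in that of 2610318N02Rik. It was also found in 14 of the 20 members that rose and for which a RefSeq window was read. Of those 20, 4 held TTTGAA, 2 GAAANNGAA and 0 CCGGAAG. The window of F830016B08Rik was not read. A630033H20Rik and 2010107G23Rik had more than 1 window and were counted if any matched, whereas the shares that follow are per promoter. Among 32851 RefSeq promoters of the same length, 37.4% held CCAAT, 17.9% TTTGAA, 8.86% CCGGAAG and 8.56% GAAANNGAA. The match is of letters only, and no binding was measured.

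The second set holds mature microRNAs encoded within members, since 15 members contain a small RNA gene and the member called among them is a microRNA host. Capitals mark the seed, bases 2 to 8, which pairs with target RNAs. The libraries did not measure the microRNAs themselves.
miR-130b-3p, within 2610318N02Rik: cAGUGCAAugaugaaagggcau
miR-29b-3p, within A330023F24Rik: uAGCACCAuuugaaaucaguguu
miR-29c-3p, within A330023F24Rik: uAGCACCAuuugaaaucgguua
miR-101a-3p, within E130102H24Rik: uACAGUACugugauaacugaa
miR-29b-3p and miR-29c-3p share the seed AGCACCA.

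The comparison of aged with young cells asked which transcripts differ with age. Among the Riken transcripts, 21 rose and 3 fell in aged cells at an adjusted p under 0.05 by edgeR's quasi-likelihood test (24 of 393, or 6.11%); over all 13413 genes tested, 4.26% were called higher and 1.5% lower, 5.76% in all. The 2 ages' values were fully apart for 145 members (36.9%), against 36.6% of all genes. The median log2 fold change (aged minus young) was 0.05 over the members and 0.04 over all genes. These shares of the members were near those of all genes. DESeq2 called 66 members (16.8%), where it called 16.3% of all genes. In bulk libraries, fewer cells of a type and less RNA per cell cannot be told apart.

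**Figure D1:**
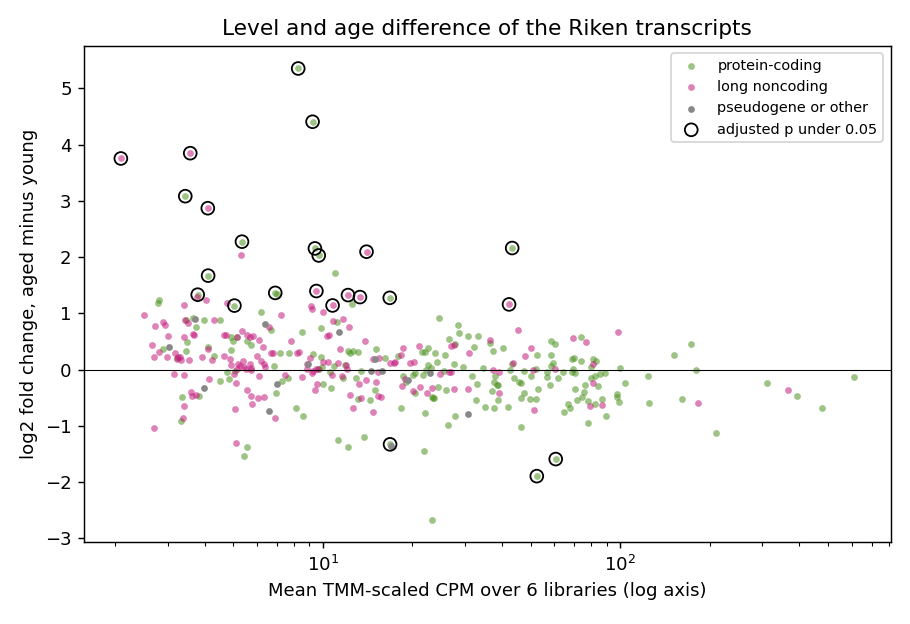
Each point is 1 of the 393 Riken transcripts. The x axis gives the mean TMM-scaled CPM over 6 libraries on a log axis, the y axis the log2 fold change (aged minus young), colours give the RefSeq class, and rings mark the 24 members with an adjusted p under 0.05, of which 21 lie above 0 and 3 below.

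Of the 24 calls, 9 fell on members that passed the minimum only through the aged libraries (C130026I21Rik, 9530026P05Rik, 0610040J01Rik, 1700024P16Rik, A530032D15Rik, 5730409E04Rik, 1700003E16Rik, 2410017I17Rik and 2310069B03Rik), 5 on members that passed through both ages, and 10 (7 higher, 3 lower) on the 314 that reached it in all 6 libraries, 3.18% of those. For these 9, higher values in aged libraries follow from the rule, so their folds and calls are given below as a description and support nothing. The calls rested on the full set of libraries. Of the 6 fits that each left out 1 library, all called 2 of the members, while 1 member was called in 4, 1 in 3, 7 in 2, 12 in 1 and 1 in none. Of the 24 calls, 22 were kept without young 4, 10 without aged 1, 4 without aged 2 and 3 without each of aged 3, young 5 and young 6. None of the 24 changed direction under any alternative run.

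The members called in each of those 6 fits were C130026I21Rik and 9530026P05Rik, both of which passed the minimum only through the aged libraries, where they were high. C130026I21Rik, a protein-coding gene on chromosome 1, stood at 15.3, 24.5 and 13.0 CPM in aged 1 to 3 and at 1.19, 0.698 and 0.657 CPM in young 4 to 6 (TMM-scaled, as are all CPM values of single genes below). Every aged library was above 10 CPM and every young one near 1 CPM, a fold of 21.2 (log2 fold change 4.41 ± 0.39 SE, adjusted p = 0.0038). 9530026P05Rik, a spliced long noncoding RNA on chromosome 6, stood at 5.47, 7.12 and 7.52 CPM in aged and at 0.398, 0.299 and 0.657 CPM in young libraries, 14.4-fold higher with age (adjusted p = 0.0052). The young values of 9530026P05Rik rest on 5, 6 and 15 counts.

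A530032D15Rik, the neighbour of C130026I21Rik with the shared promoter run, stood at 7.10, 12.4 and 7.06 CPM in aged and at 2.07, 1.94 and 1.49 CPM in young libraries. It rose 4.84-fold (adjusted p = 0.0173), and aged 2 was the highest library for both neighbours. Both genes resemble Sp140, which encodes a nuclear body protein of the Sp100 family found in immune cells. Of the 51-base windows of A530032D15Rik transcripts in GENCODE, as long as a read, 39.5% also occur in another gene, 28.4% in Sp140 and 21.3% in C130026I21Rik; of those of C130026I21Rik, 32.5% occur elsewhere. The rows of both genes end at the same base in the table, so how their reads were divided is uncertain. Sp140 itself was at 59.3, 57.6 and 47.7 CPM in aged and 39.8, 33.7 and 32.9 CPM in young libraries, 1.55-fold higher with an adjusted p of 0.0754. Sp100 (1.29-fold, adjusted p = 0.225) and Sp110 (1.07-fold, adjusted p = 0.725) did not pass the test.

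F830016B08Rik was the most abundant member that rose. It lies on chromosome 18 at chr18:60293380-60303016, in a region of interferon-inducible GTPase genes, whose proteins act against intracellular microbes. It stood at 62.2, 98.3 and 51.8 CPM in aged and at 17.8, 19.9 and 9.78 CPM in young libraries, 4.47-fold higher (adjusted p = 0.0235). Only 1.69% of its read-length windows occur in other genes. Its relatives of the region had aged means above the young ones and did not pass the test: Iigp1 was 2.05-fold higher (adjusted p = 0.286), Gm4951 1.77-fold (adjusted p = 0.340) and Gm4841 2.92-fold (adjusted p = 0.0758). Young 6 was the lowest of the young libraries for all 4, and aged 3 the lowest of the aged ones.

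Among coding members that have since been named, 4 rose. 1700024P16Rik, now Fyb2, which encodes an adaptor protein of T cell receptor signalling, stood at 31.6, 10.6 and 6.04 CPM in aged and 0.556, 0.349 and 0.307 CPM in young libraries. Aged 1 was far above aged 2 and aged 3, and the fold with age, 40.8 (log2 fold change 5.35 ± 0.76, adjusted p = 0.0167), was moved most by that library, without which the log2 fold change was 4.40. Its young values were 7 counts in each library. 2010107G23Rik, now Fam241b, rose 4.45-fold, from 3.40 ± 1.64 to 15.4 ± 1.36 CPM (SD, n = 3 each), and 9030617O03Rik, now Dglucy, which encodes the D-glutamate cyclase of mitochondria, rose 4.08-fold, from 3.77 ± 1.73 to 15.6 ± 3.51 CPM. A630033H20Rik, now P2ry10b, a gene of the P2Y family of G protein-coupled receptors on the X chromosome, rose 2.57-fold, from 3.87 ± 0.237 to 9.95 ± 2.65 CPM. Adjusted p-values of these last 3 were 0.0308, 0.0345 and 0.0374.

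The other coding members that rose still carry only their clone name. 0610040J01Rik on chromosome 5 stood at 6.19, 5.26 and 6.96 CPM in aged and 1.11, 0.598 and 0.526 CPM in young libraries, 8.47-fold higher (adjusted p = 0.0103). The rest, 5730409E04Rik, 1700003E16Rik, 1700029J07Rik and 4930550C14Rik, rose 2.20-fold to 3.18-fold, with adjusted p-values of 0.0315 to 0.0422. Of these, 4930550C14Rik had the least spread between aged pools, at 6.90, 7.07 and 6.78 CPM against 3.82, 2.89 and 2.76 CPM in young libraries. 1700003E16Rik starts 25 bases from Wdr54, a WD repeat gene at 3.08 ± 1.18 CPM in the aged and 2.46 ± 1.63 CPM in the young pools (adjusted p = 0.680). 1700029J07Rik starts 276 bases from Ufsp2, which encodes a protease of the ubiquitin-like modifier UFM1. Ufsp2 had the opposite sign, with a log2 fold change of -0.56 (adjusted p = 0.273) and its highest level, 138 CPM, in young 4.

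**Figure D2:**
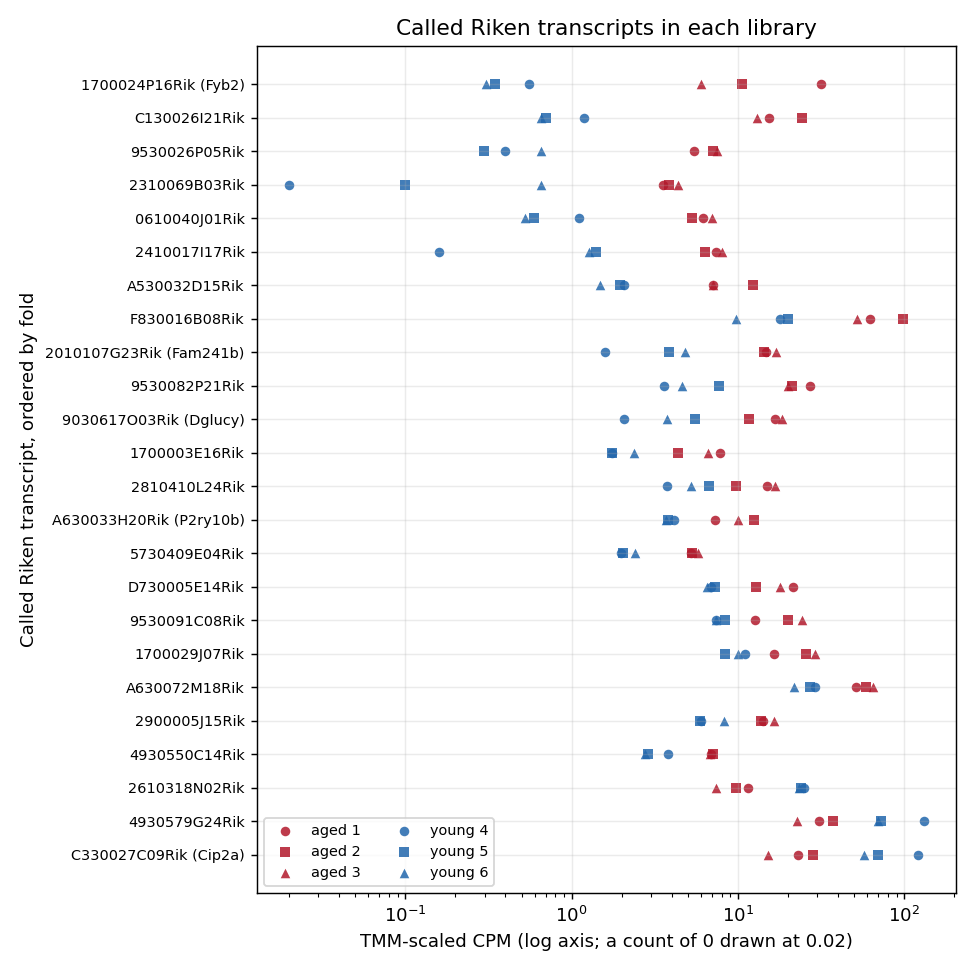
TMM-scaled CPM (x axis, log scale) of the 24 called Riken transcripts (y axis, ordered by fold) in each of 3 aged (red) and 3 young (blue) libraries; a count of 0 is drawn at the left. The aged and young points of each row do not overlap, and the 3 rows at the bottom are those that fell.

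All 9 long noncoding members with a call rose. A630072M18Rik, an unspliced transcript of 5.41 kb on chromosome 5, was the most abundant of them, at 51.4, 58.6 and 65.1 CPM in aged and 29.3, 27.3 and 21.9 CPM in young libraries. It rose 2.23-fold (log2 fold change 1.16 ± 0.18, adjusted p = 0.0223). The transcript starts within Rsbn1l, on the opposite strand, and 95.0% of its read-length windows lie in GENCODE transcripts of Rsbn1l read in antisense. Since the kit does not mark strand, reads of the 2 genes cannot be told apart there. In the row of Rsbn1l itself, values were 46.8, 57.3 and 50.6 CPM in aged and 63.8, 45.5 and 47.3 CPM in young libraries, with a log2 fold change of -0.02 (adjusted p = 0.962).

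9530082P21Rik, on chromosome 17, stood at 27.1, 21.1 and 20.0 CPM in aged and 3.58, 7.67 and 4.60 CPM in young libraries, 4.28-fold higher (adjusted p = 0.0217). It overlaps Flywch1, a zinc finger gene on the opposite strand, which was at 47.2, 19.3 and 31.3 CPM in aged and 5.80, 20.0 and 18.2 CPM in young libraries (2.21-fold, adjusted p = 0.211). Of its windows, 21.1% also lie in Flywch1 transcripts. D730005E14Rik, unspliced, overlaps the start of Apobec3, a cytidine deaminase gene that restricts retroviruses, by 731 bases, and 15.97% of its read-length windows also occur in Apobec3 transcripts. It stood at 21.4, 12.8 and 17.8 CPM in aged and 6.92, 7.32 and 6.53 CPM in young libraries, 2.51-fold higher (adjusted p = 0.0335). Apobec3 averaged 264 ± 44.3 CPM in the aged and 181 ± 13.1 CPM in the young pools (SD, n = 3 each), 1.46-fold higher with an adjusted p of 0.125. Aged 1 was the highest library for both.

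2900005J15Rik starts 333 bases from Prkag2, which encodes a regulatory subunit of the energy sensor AMPK, on the opposite strand. It stood at 14.1, 13.8 and 16.6 CPM in aged and 5.96, 5.88 and 8.29 CPM in young libraries (2.20-fold, adjusted p = 0.0390). Prkag2 stood at 138, 165 and 227 CPM in aged and 84.5, 103 and 99.6 CPM in young libraries (1.85-fold, adjusted p = 0.064), and aged 3 was the highest library for both. 9530091C08Rik, unspliced, lies within Rora, a nuclear receptor gene, on the same strand and shares no base with its GENCODE exons. It stood at 12.6, 19.9 and 24.2 CPM in aged and 7.39, 8.42 and 7.36 CPM in young libraries (2.44-fold, adjusted p = 0.0449). Rora stood at 28.6, 41.9 and 44.4 CPM in aged and 19.7, 20.7 and 23.1 CPM in young libraries (1.81-fold, adjusted p = 0.0659), with the aged libraries in the same order. Reads of unspliced Rora RNA would fall in 9530091C08Rik, and their part was not tested.

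The remaining noncoding calls were low in young cells. 2410017I17Rik rose 7.30-fold, from 0.942 ± 0.681 to 7.25 ± 0.850 CPM (SD, n = 3 each; adjusted p = 0.0371), and 2810410L24Rik rose 2.63-fold, from 5.21 ± 1.47 to 13.8 ± 3.57 CPM (adjusted p = 0.0486); the latter was called in none of the 6 fits that left out a library. Of the read-length windows of 2410017I17Rik, 18.4% also occur in other genes, 12.7% in Gm17782. 2310069B03Rik, on chromosome 6, stood at 3.55, 3.87 and 4.36 CPM in aged libraries. In young libraries it had 0, 2 and 15 counts, that is 0, 0.0996 and 0.657 CPM, where a count of 0 in young 4 allows up to 0.238 CPM at 3 counts. Its log2 fold change was 3.75 (adjusted p = 0.0405) and moved most without young 6, to 5.88. Of the 9 noncoding calls, 4 were on unspliced transcripts.

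The 3 members that fell are protein-coding and reached the minimum in all 6 libraries. C330027C09Rik, now Cip2a, encodes an inhibitor of the phosphatase PP2A that is made in dividing cells. It stood at 23.0, 28.4 and 15.3 CPM in aged and 121, 69.7 and 56.9 CPM in young libraries, a 3.71-fold fall (log2 fold change -1.89 ± 0.35, adjusted p = 0.0335). Young 4 was the highest library, and without it the log2 fold change was -1.53. Its start lies 76 bases from that of Dzip3, which encodes a ubiquitin ligase and is transcribed in the other direction. Dzip3 stood at 52.1, 53.4 and 48.9 CPM in aged and 55.1, 49.6 and 46.6 CPM in young libraries, a fold of 1.02 (adjusted p = 0.911). Of the 3 members on a list for cell division, replication and repair by their present names, Cip2a was the only 1 called. Tedc1 and Tedc2, which encode centriolar tubulin-associated proteins, had log2 fold changes of -0.15 and -0.01 (adjusted p = 0.860 and 0.985). That list is not complete and does not hold D330045A20Rik, now Radx, which is described below. The Cip2a window printed above holds 1 CCAAT and 1 CCGGAAG match.

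4930579G24Rik, on chromosome 3, stood at 30.6, 37.4 and 22.7 CPM in aged and 131, 72.7 and 69.3 CPM in young libraries. It fell 3.01-fold (adjusted p = 0.0371), and its libraries stood in the same order as those of Cip2a. Of its read-length windows, 15.7% also occur in other genes, 11.9% in Etfdh. It starts 312 bases from Etfdh, which encodes a mitochondrial flavoprotein dehydrogenase and had a log2 fold change of -0.24 (adjusted p = 0.453). 2610318N02Rik, on chromosome 16, stood at 11.6, 9.75 and 7.43 CPM in aged and 24.8, 24.0 and 23.4 CPM in young libraries, a 2.51-fold fall (log2 fold change -1.33 ± 0.22, adjusted p = 0.0249). Here young 4 was level with the other young pools. 12.4% of its windows also occur in Gm6960.

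2610318N02Rik contains the genes of miR-130b and miR-301b. Of the 15 members that contain a small RNA gene, it was the only 1 with a call. That is 6.67%, near the 5.76% of all genes tested. Of the 15, 10 had a log2 fold change above 0. A330023F24Rik, the long noncoding host of miR-29b-2 and miR-29c, stood at 3.93, 5.06 and 5.15 CPM in aged and 1.35, 2.24 and 2.72 CPM in young libraries (2.21-fold, adjusted p = 0.0865). It passed the minimum only through the aged libraries. E130102H24Rik, which contains miR-101a, stood at 11.1, 13.7 and 12.6 CPM in aged and 8.67, 4.38 and 4.73 CPM in young libraries (2.12-fold, adjusted p = 0.0894). The groups of E130102H24Rik did not overlap, while the separation of those of A330023F24Rik follows from the rule. Neither host passed the test. Of the 15 members with a small RNA gene, 7 had separated groups (46.7%), against 36.6% of all genes tested. 1810032O08Rik, now Snhg16, a host of small nucleolar RNAs, averaged 31.6 ± 1.67 CPM in the aged and 23.4 ± 1.32 CPM in the young pools (1.35-fold, adjusted p = 0.153). 2010111I01Rik, now Aopep, an aminopeptidase gene that contains miR-23b, miR-24-1 and miR-27b, was at 45.6 ± 3.14 CPM in the aged and 35.0 ± 2.32 CPM in the young pools (1.30-fold, adjusted p = 0.178). The other 10 hosts had log2 fold changes of -0.45 to 0.92 and adjusted p-values of 0.226 to 0.803.

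Most of the Riken RNA came from members without a call. Together the 393 members held 1.16% to 1.30% of a library's counts, 15 members had a mean of 100 CPM or more, 162 a mean under 10 CPM, and the 10 most abundant made up 24.6% of the summed mean CPM. C330006A16Rik was the most abundant, at 476, 647 and 628 CPM in aged and 788, 546 and 577 CPM in young libraries (log2 fold change -0.13, adjusted p = 0.737). 4933434E20Rik stood at 248, 470 and 376 CPM in aged and 1144, 299.5 and 316 CPM in young libraries (log2 fold change -0.69, adjusted p = 0.448). Its value in young 4 was more than 2 times that of any other library, and without young 4 the log2 fold change was 0.23. The head-to-head neighbour Ubap2l averaged 402 ± 27.5 CPM in the aged and 395 ± 30.3 CPM in the young pools. 2900097C17Rik, now Norad, a long noncoding RNA that binds PUMILIO proteins, stood at 254, 376 and 337 CPM in aged and 628, 305 and 306 CPM in young libraries (log2 fold change -0.36, adjusted p = 0.504). 2810474O19Rik, now Resf1, which takes part in silencing of retroelements, stood at 206, 360 and 288 CPM in aged and 632, 191 and 186 CPM in young libraries. Of the 10 most abundant members, 8 were highest in young 4, and the log2 fold changes of Norad and Resf1 without it were 0.06 and 0.58.

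9030624J02Rik, now Vps35l, a subunit of the endosomal retriever complex, had nearly equal means, 180 ± 21.4 CPM in the aged and 180 ± 24.4 CPM in the young pools (SD, n = 3 each). 2810403A07Rik, now Khdc4, which encodes an RNA-binding splicing protein, was lowest in young 4, at 101 CPM against 162 to 213 CPM elsewhere (1.37-fold, adjusted p = 0.253). F630111L10Rik, a long noncoding RNA at 79.8 to 194 CPM in the aged and 123 to 371 CPM in the young pools, shares 7197 exon bases on the same strand with P2ry14, so its reads cannot be assigned to either gene with certainty. P2ry14, a receptor gene for UDP-sugars, averaged 6.65 ± 1.39 CPM in the aged and 16.4 ± 5.67 CPM in the young pools (log2 fold change -1.30, adjusted p = 0.0557). Per kb of transcript, the highest levels were those of 1110004F10Rik at 273 CPM per kb and of 2010107E04Rik, now Atp5mpl, at 269 CPM per kb, followed by C330006A16Rik at 228 CPM per kb. The age difference of 1110004F10Rik was a log2 fold change of -0.46 (adjusted p = 0.285). The list of mitochondrial proteins, which is not complete and does not hold Dglucy, matched 4 members by their present names, Atp5mpl, Micos13, Mtres1 and Mtln; none of these 4 was called, each had a log2 fold change below 0, and each was highest in young 4.

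The 10 uncalled members described next were taken for the size of their change among those with separate groups. D330045A20Rik, now Radx, which acts at stalled replication forks, stood at 6.42, 8.77 and 3.76 CPM in aged and 81.1, 17.9 and 21.7 CPM in young libraries (log2 fold change -2.67 ± 0.65, adjusted p = 0.0605). Young 4 was far above the other young pools, and without it the log2 fold change was -1.67 with an adjusted p of 0.0417. 4921504A21Rik, a long noncoding RNA, stood at 5.27, 9.86 and 10.4 CPM in aged and 3.58, 1.20 and 1.58 CPM in young libraries (4.11-fold, adjusted p = 0.0552). It starts 491 bases from Magi2, a scaffold protein gene that rose 2.67-fold, from 2.98 ± 0.806 to 7.91 ± 1.24 CPM (adjusted p = 0.0388). 2700099C18Rik, a pseudogene, was at 9.53 ± 2.00 CPM in the aged and 24.5 ± 12.5 CPM in the young pools (log2 fold change -1.36, adjusted p = 0.0857), while its head-to-head neighbour Mettl4 had a log2 fold change of -0.16. 1700010I14Rik (log2 fold change -1.54), 5430427O19Rik (-1.45), 6030498E09Rik (-1.38), 6720489N17Rik (-1.37) and 2810408I11Rik (-1.30) were lower in aged libraries and 3632451O06Rik, now Armh4 (1.35), and 9230112J17Rik (1.28) were higher, with adjusted p-values of 0.0540 to 0.158. All 7 of these that were lower in aged libraries, D330045A20Rik and 2700099C18Rik included, were highest in young 4.

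Many members overlap a named gene or start beside one. In the table's coordinates, 88 members overlapped a named gene on the opposite strand, 14 on the same strand, 5 on both strands and 286 on neither, and 123 lay head to head with a named gene, with starts on opposite strands within 1000 bases. Of 193 pairs of a member and a tested partner (175 members), 113 had log2 fold changes of the same sign (58.5%), and Pearson's r across the pairs was 0.27. This describes these pairs, which share libraries and, where exons overlap, can share reads; it was 0.23 over the 119 head-to-head pairs. In no pair did edgeR call both genes; in 6 both had an unadjusted p under 0.05, and DESeq2 called both in 4. Beside Magi2, other partners called without their member included Nol3 (11.0-fold higher), Fam84b (3.47-fold higher), Cdca8 (4.61-fold lower) and Dnaaf2 (1.70-fold lower). Nol3 was low, at 1.53, 1.91 and 1.58 CPM in aged 1 to 3. In young 4 to 6 it stood at 0.159, 0.199 and 0.0877 CPM, where 3 counts are 0.238, 0.149 and 0.131 CPM. Nol3 shares 1531 exon bases with 4931428F04Rik on the opposite strand, so reads of the pair cannot be told apart there. Cdca8, a subunit of the chromosomal passenger complex of mitosis, starts 131 bases from 9930104L06Rik, whose log2 fold change was 0.46 (adjusted p = 0.312). Fam84b shares 1594 exon bases with 9930014A18Rik (log2 fold change 0.31, adjusted p = 0.478).

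**Figure D3:**
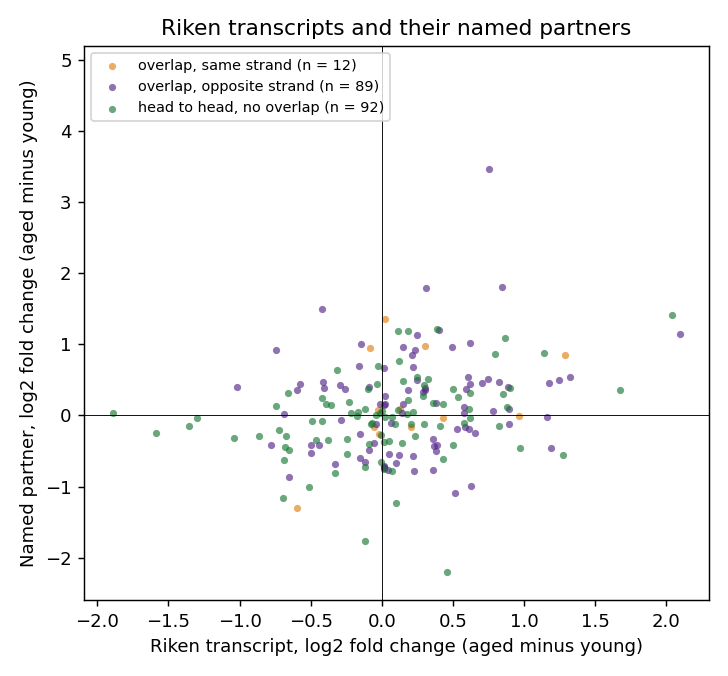
Log2 fold change (aged minus young) of a Riken transcript (x axis) and of the named gene that overlaps it or starts head to head with it (y axis) for 193 pairs; colours give the strand relation. The points scatter around both zero lines, and 113 pairs have the same sign on both axes. The highest point is Nol3, whose young values were only 0.0877 to 0.199 CPM.

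The classes differed in the direction of their members' values. Among the 172 long noncoding members, 112 had a log2 fold change above 0, and the median was 0.14. Separated groups were aged-above for 45 and aged-below for 11, or 32.6% together. Of all genes tested, 36.6% had separated groups, 2548 aged-above and 2362 aged-below. By edgeR, 9 were called higher (5.23%) and 0 lower, against 4.26% and 1.5% of all genes. An unadjusted p under 0.05 was found for 37 higher and 6 lower, and DESeq2 called 22 higher and 4 lower. The counts here and for the coding members include members that passed the minimum only through the aged libraries. The direction of such members follows from the rule. Among them are the noncoding calls on 9530026P05Rik, 2410017I17Rik and 2310069B03Rik. Of the 206 protein-coding members, 96 were above 0, and the median was -0.03. Separated groups were aged-above for 37 and aged-below for 45, or 39.8% together, and 12 were called higher (5.83%) and 3 lower (1.46%). At the same minimum, the 136 long noncoding genes without a Rik symbol had a median of 0.07 with 9 higher (6.62%) and 1 lower call. Their separated groups were aged-above for 18 and aged-below for 12. The 10507 other protein-coding genes had a median of 0.00 with 411 higher (3.91%) and 165 lower calls (1.57%). The difference between classes was not tested. In members that reached the minimum in all 6 libraries, the median was 0.09 for 127 noncoding and -0.11 for 174 coding members. Of those 174 coding members, 3 were called higher and 3 lower (1.72% each). Their separated groups were aged-above for 17 and aged-below for 43, or 34.5% together. Of the 9442 other coding genes there, 2.35% were called higher and 1.5% lower. Separated groups of these genes were aged-above for 1351 and aged-below for 1985, or 35.3% together, and their median was -0.04. Of the 127 noncoding members, 4 were called higher (3.15%), against 4.90% of the 102 other long noncoding genes. Separated groups of the 127 were aged-above for 27 and aged-below for 7, or 26.8% together. Those of the 102 were aged-above for 11 and aged-below for 9, or 19.6% together, and their median was 0.01.

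The noncoding members did not split the libraries by age alone. Measured as the median deviation from each gene's mean log2 CPM, the 127 noncoding members stood at -0.09, 0.14 and 0.14 in aged 1 to 3 and at 0.30, -0.24 and -0.19 in young 4 to 6. Young 4 was thus the highest library and aged 1 was below 0, and the other long noncoding genes had the same signs, from 0.37 in young 4 to -0.19 in young 5. The 174 coding members were highest in young 4 as well, at 0.28. The 9442 other coding genes lay within 0.05 of 0 in every library. They are most of the 13413 genes on which the TMM scaling was computed, so their values near 0 partly follow from it. Young 4 held the highest value of 183 of the 393 members (46.6%), against 35.5% of all genes tested, and young 5 that of 9 members. Transcripts without introns, 45 of the members, had 4 higher calls (8.89%) and a median of 0.14; the 348 spliced members had 17 higher calls (4.89%), 3 lower calls (0.862%) and a median of 0.02. Among all genes tested, 4.26% were called higher and 1.5% lower; the difference between the 2 kinds of transcript was not tested.

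**Figure D4:**
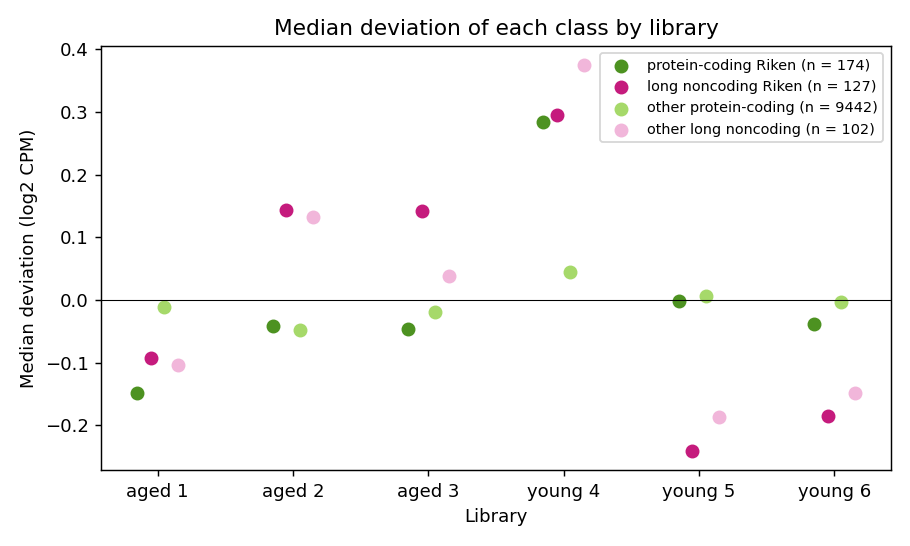
Median deviation from each gene's mean log2 CPM (y axis) in each library (x axis), for Riken and other genes, coding and long noncoding, that reached 3 CPM in all 6 libraries. Young 4 is the highest library for both Riken classes and for the other long noncoding genes. The other coding genes stay near 0, which partly follows from the scaling.

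The minimum of 3 CPM had close neighbours on both sides. Just inside it by the CPM that decides membership, the lowest of their best 3 libraries, were 4931440P22Rik and 4930480K15Rik, both at 3.01, and 1700102H20Rik at 3.04, the only member that passed through the young libraries alone. Just outside were 1700008J07Rik at 2.99 and 8030462N17Rik and 6330403K07Rik, both at 2.98. Their log2 fold changes ran from -1.04 for 1700102H20Rik to 0.78 for 4930480K15Rik. The 194 tested Rik rows below the minimum had 6 higher (3.09%) and 2 lower calls (1.03%), against 4.26% and 1.5% of all genes tested.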

How the data were processed

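RNA-seq gene counts of 6 libraries were used. Per the labels' protocols, SMART-Seq v4 libraries of total RNA were sequenced as single reads of 51 cycles. The submitters' processing notes name edgeR, HTSeq 0.11.1, STAR 2.6.0 and Trimmomatic, and build mm10; the sources used here do not give the annotation or counting mode. The authors deposited whole-number counts per gene, unscaled, beside gene coordinates and length in kb, per the file headers. The kit does not mark strand.

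Groups follow the sample titles, and replicate numbers (1 to 3, 4 to 6) pair nothing. All libraries entered 1 edgeR 4.0.16 fit (R 4.3.3; filterByExpr, TMM, glmQLFit, glmQLFTest, age as the only term), and p-values were adjusted by Benjamini and Hochberg over 13413 genes (threshold 0.05). Printed CPM are TMM-scaled without a pseudocount, whereas the member rule uses CPM of the column total; 3 counts correspond to 0.131 to 0.238 CPM, a limit of counting error alone, as PCR copies are not separate molecules. Log2 CPM for deviations had a prior count of 2. The fit was tested on simulated data. Members and lists were chosen with earlier results of these data known. Named genes were those called, the 10 most abundant and the 10 of largest change with separate groups among the uncalled, hosts of small RNAs, members on the lists by present symbol, those next to the minimum, and partners of these; Nol3, Fam84b, Cdca8, Dnaaf2, the Sp140 relatives and the chromosome 18 relatives were added after their values were seen. Overlap needed 1 base; 34 rows with intervals over 3000000 bases were left out as partners, a choice made after seeing the data. Classes, present symbols, promoters and microRNAs are RefSeq's (GRCm38.p6), matched for 323 members by symbol and 67 by synonym; windows of 51 bases are from GENCODE transcripts of 371 members, read on both strands. Alternatives were other scalings, filters and member minimums, DESeq2 1.42.0, limma-voom (limma 3.58.1) and each library left out; leaving out young 4 and aged 2 together was added after seeing the data.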

Additional observations from a re-analysis of the deposited data

How the results depend on the processing

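No paired analysis was possible because aged and young libraries share no replicate number. Against 21 higher and 3 lower calls, DESeq2 made 45 and 21, limma-voom with quality weights 92 and 38, and no filter gave 6 lower calls. DESeq2 called 16.8% of members and 16.3% of all genes, and quality weights 33.1% and 30.5%. With no filter, 7.12% of members and 4.45% of all genes were called. A member minimum of 1 CPM gave 5 lower and of 10 CPM 11 higher calls. Leaving out 1 library gave 3 to 29 higher and 0 to 4 lower calls, while calls over all genes moved in parallel, from 74 without young 5 to 1029 without young 4 (772 in all). With young 4 and aged 2 both left out, 21 members were called (5.34%, against 4.81% of all genes), 15 of them among the 24. The median log2 fold change of the members was 0.24 with no scaling and 0.19 with quality weights, where that of all genes was 0.20 and 0.03 (0.11 with upper-quartile scaling, 0.27 with no filter); it was -0.04 at a member minimum of 10 CPM. Some abundant members without a call changed sign, and the cause was not tested. With no scaling, the log2 fold change of C330006A16Rik was 0.069, of 2810474O19Rik 0.0511 and of 9030624J02Rik 0.138. With quality weights, C330006A16Rik was at 0.13, 4933434E20Rik at 0.29, 2900097C17Rik at 0.12, 2810474O19Rik at 0.62 and F630111L10Rik at 0.17. Over the fits that left out 1 library, C330006A16Rik ran from -0.232 to 0.0347, 4933434E20Rik from -1.01 to 0.226, 2900097C17Rik from -0.541 to 0.0565, 2810474O19Rik from -0.534 to 0.580 and 9030624J02Rik from -0.133 to 0.0871; the first 4 were above 0 without young 4. With young 4 and aged 2 both left out, 2810474O19Rik was at 0.363. 9030624J02Rik was at 0.0635 with upper-quartile scaling, 0.0345 at a filter of 5 CPM and 0.0017 by limma-voom.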
